A study of Mus musculus with 6 samples.

Results

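The genes described here are 40 components of NF-κB signalling: the transcription factor subunits, their inhibitors, the kinases and adaptors that switch them on, the enzymes that switch them off, and a few genes that NF-κB induces in fibroblasts. They were chosen by their known place in the pathway, with earlier results of these data known. They were taken by gene symbol from a table of 21033 genes, and all 40 have a row in it. The table holds read counts from 6 libraries of primary mouse synovial fibroblasts, the mesenchymal cells of the joint lining and the tissue below it. The cells came from the ankles of hTNFtg animals, in which human TNF is expressed from a transgene, and were passaged 3 times. Both groups carry the transgene, and the labels do not name its promoter. In 3 libraries the cells had been treated for 48 h with 10 µM compound 33, a small molecule that the series title links to the chaperone Hyou1, and in the other 3 with its vehicle DMSO. The labels do not say whether the replicates are separate cultures or animals, so each p-value reflects no more than library-to-library spread, possibly technical.

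In resting cells, dimers of the NF-κB subunits are held in the cytoplasm by IκB proteins. When TNF or interleukin 1 binds its receptor, TRAF adaptors and IAP ubiquitin ligases build a platform on which the kinases TAK1 and IKK become active, IKK marks IκB for destruction, and the dimers enter the nucleus. The genes they induce include adhesion molecules, cytokines and several brakes on the pathway itself, IκBα and the ubiquitin-editing enzyme A20 among them. In the inflamed joint, TNF-driven NF-κB activity in synovial fibroblasts is known for sustaining chemokines, matrix-degrading enzymes and leukocyte adhesion. Much of this control acts on proteins, through phosphorylation, ubiquitination and movement to the nucleus, which transcript counts do not measure.

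Several of these genes, Nfkbia and Tnfaip3 among them, are known as NF-κB targets. RefSeq promoter windows on GRCm38.p6, the assembly of mm10, were at hand for 30 of the 40 genes, each reaching from 250 bases before to 50 bases after the transcription start. They were searched on both strands for a pair of NF-κB-type motifs, GGG followed by any 2 bases and then TTTCC or TTCCC, and a position matched by both was counted once. A match was present for 11 of the 30 genes (36.7%), against 355 of 7985 tested genes with such a window (4.45%). By window, 13 of 39 from these genes and 1063 of 32851 in the whole table held a match (33.3% and 3.24%). The windows of the induced targets Icam1, Tnfaip2 and Sod2 held no match. Matches from 8 of the 11 genes are shown as examples. Each is given as 30 bases on the strand of its gene, 5′ to 3′, with the match in capitals.
Nfkbia: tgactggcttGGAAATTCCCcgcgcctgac
Nfkb2: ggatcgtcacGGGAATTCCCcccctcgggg
Rel: cgtaagcagcGGGAAATCCCcccccctccc
Tnfaip3: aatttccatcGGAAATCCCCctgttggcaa
Tnip1: tccatcatggGGGAATTCCCctcctgcctc
Csf1: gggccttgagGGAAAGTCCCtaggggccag
Traf3: ggcggcccgcGGGGATTTCCagcgcgcgag
Map3k7: ccccgggtcaGGAAATTCCCcgctcgggtc

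On this assembly the Nfkbia window lies on the minus strand at chr12:55492657-55492686, and its match begins at position -29, where 0 is the transcription start. The Nfkb2 window is on the plus strand at chr19:46304688-46304717 with its match at -39. Those of Rel (chr11:23771042-23771071, match at -92), Tnfaip3 (chr10:19015403-19015432, match at -12) and Tnip1 (chr11:54962978-54963007, match at -57) lie on the minus strand. The Csf1 window is on the minus strand at chr3:107760604-107760633 with its match at -154. Traf3 (chr12:111166350-111166379, match at -10) and Map3k7 (chr4:31964005-31964034, match at -92) are on the plus strand. In Nfkb2 and Tnip1 the match is the same palindrome of 10 letters. The other genes with a match were Bcl3, Traf2 and Cyld. Windows without a match were those of Tnfaip2, Icam1, Sod2, Traf1 and Birc3, which are known targets or treated as such here. The other genes of the 19 without a match were Rela, Nfkbib, Nfkbie, Chuk, Ikbkg, Ripk1, Traf5, Traf6, Birc2, Map3k14, Tab2, Tnip2, Otulin and Zc3h12a. No window was at hand for Nfkb1, Relb, Nfkbiz, Ikbkb, Tradd, Ripk2, Map3k8, Tab1, Tnfaip8 and Vcam1. A match is a string of letters and not a measured binding site.

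The comparison of compound 33 with DMSO asks whether the compound alters transcripts of this pathway in fibroblasts that carry a human TNF transgene. Vcam1, an adhesion molecule for leukocytes, stood at 451 ± 100.4 CPM (counts per 1000000 reads, mean ± SD, n = 3 libraries per group) with DMSO and at 787 ± 125 CPM with compound 33. Tnfaip2, a TNF-induced gene, stood at 1047 ± 210.5 and 1955 ± 876 CPM. Sod2, the mitochondrial superoxide dismutase, stood at 683 ± 58.0 and 499 ± 104 CPM. Neither these nor any of the other genes passed the test. For 25 of the 39 genes tested the log2 fold change was smaller than 0.3 in either direction (64.1%, against 64.1% of all genes tested).

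Of the 40 genes, 39 had enough reads to be tested, and 0 passed edgeR's quasi-likelihood test at a Benjamini-Hochberg adjusted p of 0.05, where 0.0296% of the 10124 genes tested passed. DESeq2 and limma-voom also passed 0 of them, where each called 0.179% and 0.0198% of its genes. The smallest adjusted p in edgeR was 0.486, that of Vcam1. Before adjustment 4 of the 39 lay under 0.05 in edgeR, namely Vcam1, Tnfaip2, Relb and Ikbkb, all with higher means under compound 33 (10.3%, against 6.87% of all genes tested in either direction and 3.64% higher). The number lower was 0, against 3.23% of all genes. DESeq2 had 4 under an unadjusted 0.05, against 5.54% of the genes it gave an adjusted p, and limma-voom had 5, against 6.75% of all genes tested. The count in edgeR was 2 without DMSO replicate 3 (Tnfaip2 and Vcam1), against 5.73% of all genes tested, and 2 without compound 33 replicate 3 (Relb and Vcam1), against 5.61%.

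DMSO and compound 33 libraries did not overlap for 9 of the 39 genes. In 8 of them every compound 33 library was above every DMSO library (20.5%, against 6.64% of all genes tested), and in 1, Sod2, every one was below (2.56%, against 6.73%). Log2 fold changes were positive for 25 of the 39, with a median of 0.16, against 48.9% positive and a median of -0.01 over all genes tested. The fold changes ran from -0.45 for Sod2 to 0.90 for Tnfaip2. By library, the median log2(CPM + 0.5) of the 39 was 5.25 to 5.80 with DMSO and 5.37 to 5.66 with compound 33. These library medians thus overlapped between the groups. The 95% interval lay wholly between -1 and 1 on the log2 scale, that is within a 2-fold change either way, for 26 of the 39 genes (66.7%, against 65.9% of all genes tested). For the 11 genes with a promoter match the median log2 fold change was 0.02, with 6 positive and 0 under an unadjusted 0.05, and for the 19 tested genes whose windows held none it was 0.14, with 11 positive and 1 under it. The 9 tested genes with no window at hand had a median of 0.45, with 8 positive and 3 under it (Vcam1, Relb and Ikbkb); their promoters were not searched. Over all genes tested 48.9% were positive and 6.87% lay under it.

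**Figure D1:**
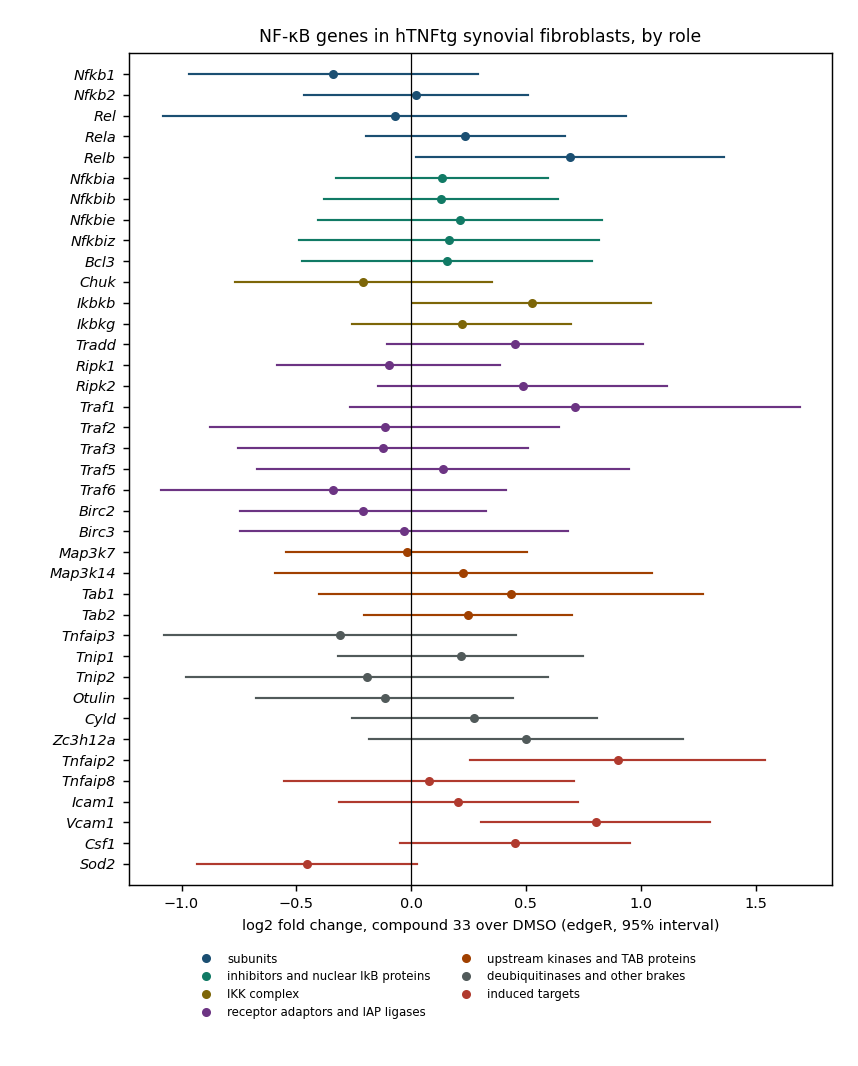
Log2 fold change of compound 33 over DMSO for the 39 tested NF-κB genes, ordered and coloured by role; points are edgeR estimates and lines are 95% intervals, with 3 libraries per group. The intervals of Relb, Ikbkb, Tnfaip2 and Vcam1 lie above 0 before adjustment for multiple tests, and that of Sod2 reaches from -0.93 to 0.03.

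The 5 subunits fall into a canonical set, Rela, Rel and Nfkb1 (the p50 precursor), and a non-canonical pair, Relb and Nfkb2 (the p100 precursor of p52). Relb stood at 24.4, 57.3 and 49.8 CPM in DMSO replicates 1 to 3 and at 81.3, 82.9 and 49.4 CPM in compound 33 replicates 1 to 3. DMSO replicate 1 was the low library, and the groups overlapped because compound 33 replicate 3 lay below DMSO replicates 2 and 3. The log2 fold change of Relb was 0.69 (SE 0.31, adjusted p = 0.720 in edgeR, 0.0442 before adjustment), and 0.42 without DMSO replicate 1. Its partner Nfkb2 was nearly flat, at 62.0, 65.4 and 56.7 CPM with DMSO and 77.6, 57.2 and 52.5 CPM with compound 33 (log2 fold change 0.02, SE 0.23).

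Rela, which encodes the main transactivating subunit p65, was the most abundant of the 5 in 3′ counts, which follow transcript number and are not divided by length. It stood at 106, 118 and 96.1 CPM with DMSO and at 133, 128 and 116.85 CPM with compound 33. The highest DMSO library lay just above the lowest compound 33 library, and the log2 fold change was 0.24 (95% interval -0.20 to 0.67). Nfkb1 had values of 28.6, 61.8 and 44.9 CPM with DMSO and 42.2, 28.6 and 37.1 CPM with compound 33. Its lowest DMSO library was thus as low as its lowest compound 33 library, and its log2 fold change of -0.34 (SE 0.29, adjusted p = 0.892 in edgeR) became -0.57 without DMSO replicate 1 and -0.05 without DMSO replicate 2. Rel, best known for its role in lymphocytes, had 7 to 17 reads per library, and its interval of -1.08 to 0.94 is too wide to place it.

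All 5 IκB-type genes had log2 fold changes between 0.13 and 0.21, and none had an unadjusted p under 0.05. Nfkbia encodes IκBα, the inhibitor that is degraded first and then made anew by NF-κB, and it carries the promoter match printed above. It stood at 321, 373 and 406 CPM with DMSO and at 440.2, 444 and 322 CPM with compound 33. DMSO replicate 1 and compound 33 replicate 3 were at the same low level, so the groups overlapped fully at that end (log2 fold change 0.13, 95% interval -0.33 to 0.59). Nfkbib and Nfkbie, for IκBβ and IκBε, had means of 35.1 ± 6.48 and 35.1 ± 5.12 CPM with DMSO and 38.3 ± 2.06 and 40.4 ± 14.7 CPM with compound 33.

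The nuclear IκB proteins act in the opposite sense, as co-regulators of p50 and p52 on DNA. Bcl3, one of them, stood at 86.4, 80.3 and 88.4 CPM with DMSO and at 84.4, 143 and 56.1 CPM with compound 33. Nfkbiz, for IκBζ, which assists a subset of late targets such as Il6, stood at 44.5, 42.9 and 33.4 CPM with DMSO and at 41.0, 65.9 and 27.3 CPM with compound 33. In both genes compound 33 replicate 2 was the highest of the 6 libraries and compound 33 replicate 3 the lowest, with the DMSO libraries between them. The coefficient of variation was 4.98% with DMSO and 46.7% with compound 33 for Bcl3, and 14.9% and 43.8% for Nfkbiz. Leaving out compound 33 replicate 2 turned both estimates negative (-0.27 and -0.23).

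Among the genes of the IKK complex, Ikbkb and Ikbkg had groups that did not overlap. Ikbkb encodes IKKβ, the kinase that marks IκBα, and stood at 37.6, 29.8 and 31.7 CPM with DMSO and at 40.3, 44.4 and 57.7 CPM with compound 33. Each compound 33 library was above each DMSO library, the closest pair being DMSO replicate 1 and compound 33 replicate 1. Its log2 fold change was 0.53 (SE 0.24, adjusted p = 0.720 in edgeR, 0.0466 before adjustment), and 0.37 without compound 33 replicate 3. Ikbkg, for the scaffold subunit NEMO, stood at 37.1, 32.5 and 38.3 CPM with DMSO and at 41.0, 41.0 and 43.8 CPM with compound 33, a difference of 0.22 on the log2 scale (95% interval -0.26 to 0.70). Chuk, for IKKα, the kinase of the non-canonical branch, stood at 51.4, 63.6 and 71.0 CPM with DMSO and at 72.8, 50.2 and 39.1 CPM with compound 33. Its compound 33 libraries reached both above and below the DMSO range (log2 fold change -0.21, 95% interval -0.77 to 0.35).

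The 10 receptor adaptors and ubiquitin ligases had estimates on both sides of 0, 4 positive and 6 negative, and 0 lay under an unadjusted 0.05 in edgeR. Ripk2, the kinase downstream of the NOD receptors, stood at 26.5, 65.9 and 60.2 CPM with DMSO and at 73.4, 71.7 and 70.0 CPM with compound 33. Its compound 33 libraries were nearly equal and above all DMSO libraries, while DMSO replicate 1 stood far below the rest. On the log2 scale Ripk2 differed by 0.49 (SE 0.29, adjusted p = 0.813 in edgeR) and by 0.19 without that library. Traf1, an NF-κB-induced adaptor, also had groups that did not overlap, with 5, 6 and 12 reads under DMSO and 9, 12 and 11 under compound 33, that is 3.18 ± 0.866 and 5.38 ± 0.360 CPM. With so few reads its interval ran from -0.27 to 1.69.

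Traf3, which keeps the non-canonical kinase NIK low by directing it to degradation, was the most abundant of these adaptors in 3′ counts and stood at 137, 72.6 and 89.8 CPM with DMSO and at 96.6, 59.7 and 118 CPM with compound 33. The libraries of both groups were interleaved (log2 fold change -0.12, SE 0.29). Tradd, the adaptor that binds the TNF receptor, stood at 33.7 ± 6.34 and 46.5 ± 10.5 CPM (log2 fold change 0.45, 95% interval -0.10 to 1.01). The kinase scaffold Ripk1 stood at 47.0 ± 4.11 and 43.9 ± 6.21 CPM. The ligases Birc2 and Birc3, for cIAP1 and cIAP2, stood at 46.3 ± 11.7 and 22.2 ± 11.1 CPM with DMSO and at 39.8 ± 1.79 and 21.8 ± 1.34 CPM with compound 33. For Birc3, an NF-κB target, DMSO replicates 1 and 2 stood at 13.8 and 34.7 CPM and thus enclosed every compound 33 library. Traf2, Traf5 and Traf6 were low, with 15 to 44 reads per library and log2 fold changes of -0.12, 0.14 and -0.34.

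None of the kinases above IKK and their partners had an unadjusted p under 0.05 in edgeR. Map3k7, for TAK1, stood at 61.0, 80.7 and 108 CPM with DMSO and at 92.3, 81.7 and 73.1 CPM with compound 33, with the compound 33 values inside the range of the DMSO values. Its log2 fold change was -0.02 (95% interval -0.54 to 0.50). Tab2, which tethers TAK1 to ubiquitin chains, had the most reads of this set and stood at 127, 137 and 178 CPM with DMSO and at 171, 162 and 193 CPM with compound 33. The groups overlapped through DMSO replicate 3 (log2 fold change 0.25, SE 0.21). Tab1, which activates TAK1, stood at 10.7 ± 4.06 and 14.4 ± 5.24 CPM. Map3k14, for NIK, had 11 to 24 reads per library (6.91 ± 1.75 and 8.12 ± 0.516 CPM). Map3k8, for the kinase TPL2, had 11, 3 and 11 reads with DMSO and 7, 6 and 3 with compound 33 and was left out by the low-count filter.

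Of the 6 genes that restrain the pathway, Tnip1 was the most abundant in 3′ counts. Its product binds ubiquitin and A20, and it stood at 251, 171 and 249.6 CPM with DMSO and at 219, 213 and 348 CPM with compound 33. Compound 33 replicate 3 was high and the other libraries of that group lay within the DMSO range (log2 fold change 0.21, SE 0.25, and -0.05 without that library). Tnfaip3, for A20, stood at 8.48, 19.4 and 14.3 CPM with DMSO and at 12.8, 11.2 and 10.3 CPM with compound 33, the latter enclosed by the former. Its log2 fold change was -0.31 (95% interval -1.08 to 0.46). Zc3h12a, for Regnase-1, an RNase that destroys cytokine transcripts including Il6, had groups that did not overlap, at 8.48, 11.3 and 9.40 CPM with DMSO and 13.4, 14.5 and 13.4 CPM with compound 33. These values rest on 16 to 35 reads per library, and the groups differed by 0.50 on the log2 scale (SE 0.32, adjusted p = 0.827 in edgeR). The deubiquitinases Cyld and Otulin stood at 104 ± 25.3 and 61.3 ± 11.3 CPM with DMSO and at 126 ± 27.3 and 56.2 ± 16.98 CPM with compound 33. Tnip2, a relative of Tnip1, stood at 9.04 ± 1.21 and 7.88 ± 1.54 CPM.

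The 6 induced targets held the largest differences in both directions. Vcam1 stood at 564, 373 and 416 CPM with DMSO and at 896, 650.1 and 815 CPM with compound 33. Every compound 33 library was above every DMSO library, with DMSO replicate 1 the closest of its group. Its log2 fold change was 0.80 (SE 0.23, 95% interval 0.30 to 1.30, adjusted p = 0.486 in edgeR, 0.00409 before adjustment), and leaving out each library in turn gave 0.69 to 1.00. The adjusted p of Vcam1 lay between 0.146 and 0.870 over all alternatives. Icam1, the other adhesion molecule for leukocytes in this set, stood at 59.9, 104 and 79.4 CPM with DMSO and at 86.8, 107 and 87.5 CPM with compound 33. Its groups overlapped, and its log2 fold change was 0.21 (95% interval -0.31 to 0.72). Whether Vcam1 and Icam1 differ from each other in response was not tested.

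Tnfaip2 stood at 1228, 816 and 1099 CPM with DMSO and at 1437, 1462 and 2966 CPM with compound 33. The groups did not overlap, and compound 33 replicate 3 stood far above the other libraries of its group. On the log2 scale Tnfaip2 differed by 0.90 (SE 0.30, adjusted p = 0.575 in edgeR, 0.00964 before adjustment), and by 0.48 without that library. Csf1, the growth factor of macrophages and osteoclast precursors, stood at 510, 706 and 792 CPM with DMSO and at 1082, 850.3 and 815 CPM with compound 33. Its groups were separate by a narrow margin, and the log2 fold change of 0.45 (SE 0.23, adjusted p = 0.762 in edgeR) was 0.29 without DMSO replicate 1. Tnfaip8, a regulator of cell death, was low and level, at 17.1 ± 1.76 and 17.8 ± 4.48 CPM.

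Sod2, which detoxifies superoxide in mitochondria and is a classic TNF-induced gene, stood at 742, 681 and 626 CPM with DMSO and at 551, 567 and 379 CPM with compound 33. It was the single gene of the 39 with every compound 33 library below every DMSO library. Its difference on the log2 scale was -0.45 (SE 0.22, adjusted p = 0.738 in edgeR, 0.0617 before adjustment), and -0.28 without compound 33 replicate 3. The 6 targets summed to 3122, 2695 and 3029 CPM with DMSO and to 4065, 3658 and 5079.9 CPM with compound 33, a sum in which Tnfaip2 had the largest part. On mm10, Vcam1 lies on chromosome 3 at 116109949 to 116129688 (minus strand) and Tnfaip2 on chromosome 12 at 111442469 to 111455018 (plus strand). Csf1 lies on chromosome 3 at 107741048 to 107760469 (minus strand), Sod2 on chromosome 17 at 13006846 to 13040063 (plus strand) and Relb on chromosome 7 at 19606217 to 19629438 (minus strand). Annotated exons of Vcam1 and Tnfaip2 overlap an antisense gene, and reads of such a pair cannot be told apart without knowing how strand was handled in counting.

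**Figure D2:**
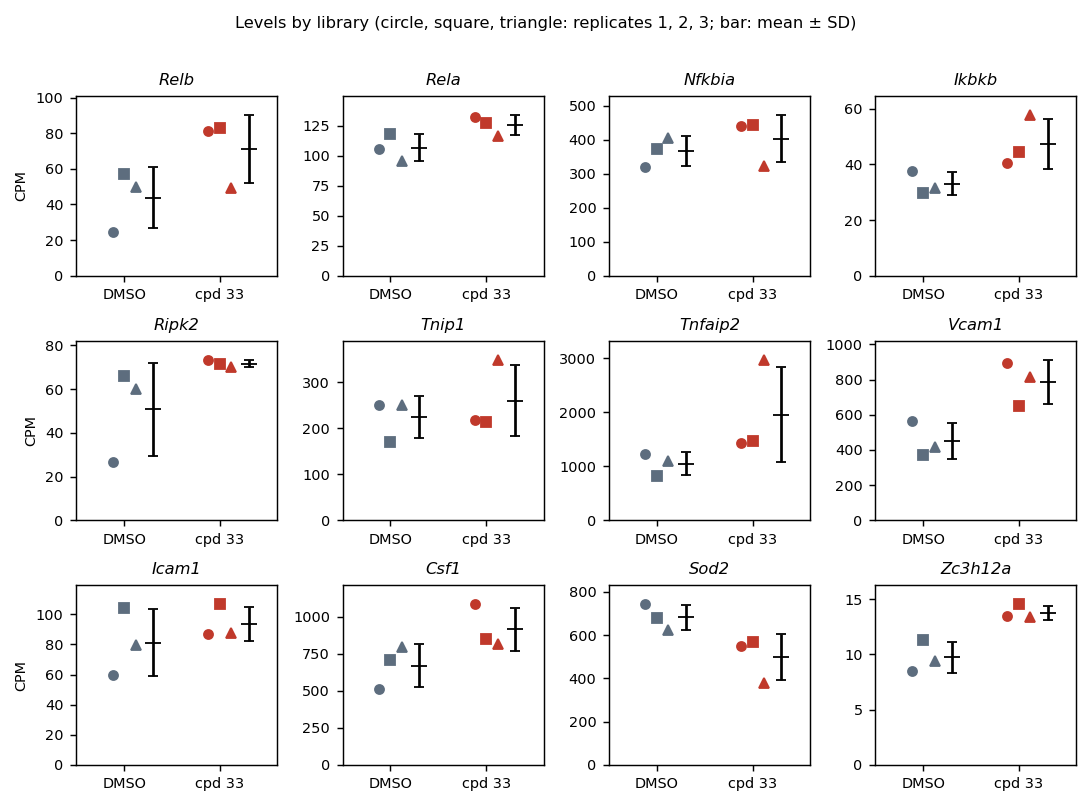
CPM of 12 NF-κB genes in each library; circles, squares and triangles are replicates 1, 2 and 3 of DMSO (grey) and compound 33 (cpd 33, red), and the bars beside them are mean ± SD (n = 3), on linear axes that start at 0. Groups do not overlap for Ikbkb, Ripk2, Tnfaip2, Vcam1, Csf1 and Zc3h12a, all higher with compound 33, and for Sod2, which is lower. Tnfaip2 shows 1 high compound 33 library at 2966 CPM, and Relb and Ripk2 show 1 low DMSO library at 24.4 and 26.5 CPM.

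Some of these genes stood apart in single libraries. DMSO replicate 1 was the lowest of the 6 libraries for 12 of the 39 (30.8%, against 22.3% of all genes tested). Relb, Ripk2, Birc3, Tnfaip3, Nfkbia, Icam1 and Csf1 were among them. Compound 33 replicate 3 was the highest for 11 (28.2%, against 20.2% of all genes), among them Tnfaip2, Tnip1, Tab1, Tab2, Cyld, Nfkbie and Ikbkb. The same library was the lowest for 8 (20.5%, against 20.6% of all genes), among them Sod2, Bcl3, Nfkbiz and Chuk. Compound 33 replicate 2 was the highest for 8 (20.5%, against 10.6% of all genes), Nfkbiz and Bcl3 among them. The median coefficient of variation within a group was 20.1% with DMSO and 19.1% with compound 33 for the 39 genes, and 22.3% and 19.7% for all genes tested.

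**Figure D3:**
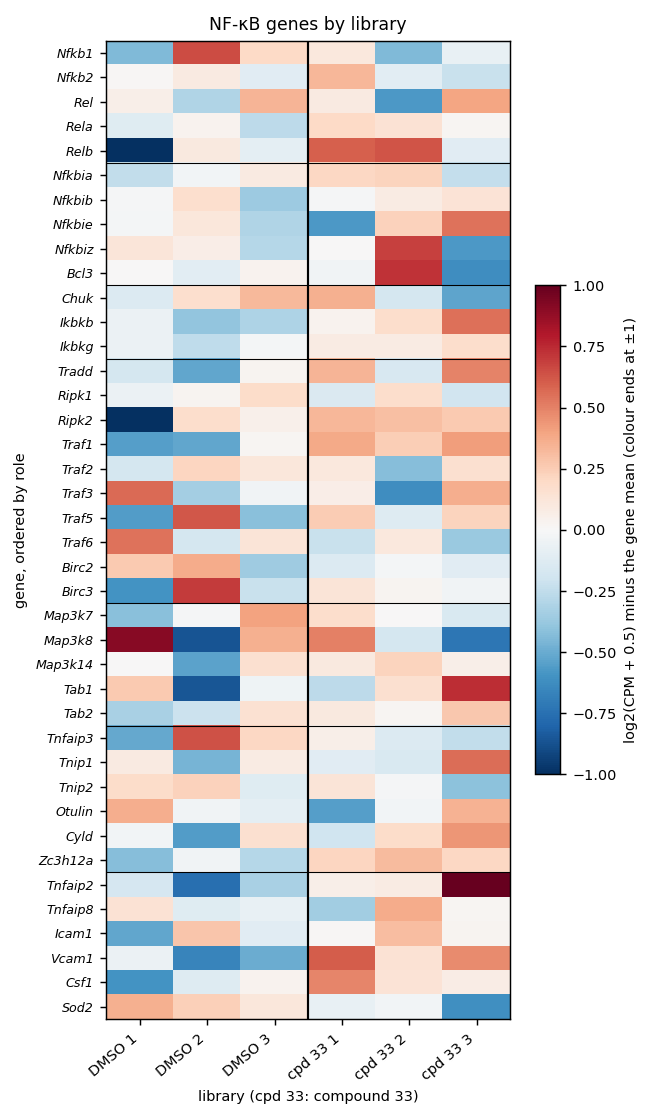
Log2(CPM + 0.5) of the 40 NF-κB genes in each library after subtracting the gene's mean over the 6 libraries, with genes ordered by role, horizontal lines between roles and a vertical line between DMSO and compound 33 (cpd 33). DMSO replicate 1 is low for Relb and Ripk2, compound 33 replicate 3 is high for Tnfaip2, and compound 33 replicate 2 is high for Nfkbiz and Bcl3.

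The libraries held 1594052 to 2897207 reads. All 10 fibroblast markers were detected. Their sum was 14278 to 15511 CPM with DMSO and 12148 to 14224 CPM with compound 33, groups that did not overlap. Among these 10 markers Pdgfrb was higher and Thy1 lower with compound 33 at an unadjusted p under 0.05 in edgeR. Of 8 macrophage markers all had some reads, and their sum was 63.1 to 136 CPM with DMSO and 53.5 to 99.3 CPM with compound 33, nearly all of it Lyz2 and Cd14, while Ptprc reached at most 1.39 CPM and Adgre1 0.696 CPM. All 6 lymphocyte markers were at 0 in every library, and 5 of 6 endothelial markers had reads, Pecam1 being at 0. The endothelial sum was 2.65 to 3.16 CPM with DMSO and 5.15 to 9.54 CPM with compound 33, groups that did not overlap, with Tek the largest part under compound 33. Muscle markers summed to 24.7 to 40.3 CPM with DMSO and 21.1 to 37.9 CPM with compound 33, mostly Acta1, and the groups did not overlap for Des (at most 0.530 CPM with DMSO and at least 2.06 CPM with compound 33). Chondrocyte markers summed to 18.9 to 28.9 CPM and 14.1 to 60.2 CPM, with Acan at 0 and Comp at 54.0 CPM in compound 33 replicate 3, and adipocyte markers to at most 1.24 CPM. In RNA from a whole culture, fewer cells of a type and less RNA per cell cannot be told apart. The part of cell makeup in the values above was not tested.

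The authors' deposited table, made with DESeq2, gives none of the 40 genes an adjusted p under 0.05, where it calls 18 genes in all (0.179%). Its smallest adjusted p among the 40 is 0.146, that of Vcam1, whose log2 fold change there is 0.80 (SE 0.24). Log2 fold changes in the authors' deposited table are 0.90 for Tnfaip2 (SE 0.29, DESeq2 adjusted p = 0.278), 0.69 for Relb (SE 0.34, adjusted p = 0.842) and -0.45 for Sod2 (SE 0.23, adjusted p = 0.865). The 4 genes with an unadjusted p under 0.05 in the authors' deposited table are these, against 5.54% of the genes with an adjusted p. It lists Ikbkb with an unadjusted p of 0.0771, and gives no adjusted p for Rel, Traf1 and Map3k8, which have the fewest reads.

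A further 74 genes of the pathway were listed beside these 40: receptors and their adaptors, other regulators, and other targets. Of these 66 were tested, and 0 passed edgeR over all genes, with 5 higher and 7 lower under an unadjusted 0.05 (7.58% and 10.6%, against 3.64% and 3.23% of all genes tested). DESeq2 passed 1, Il6, and limma-voom 0. Among 25 tested receptors and adaptors the median log2 fold change was 0.04, and the 3 genes under an unadjusted 0.05 all had higher means with compound 33 (12%, against 3.64% of all genes). Tlr2, a receptor for bacterial lipoproteins, stood at 14.3 ± 2.34 and 26.3 ± 5.86 CPM. Tlr3, the receptor for double-stranded RNA, stood at 40.01 ± 0.302 and 66.6 ± 21.0 CPM. Irak1, the kinase that links such receptors to TRAF6, stood at 77.5 ± 8.33 and 113 ± 8.45 CPM. For all 3 the groups did not overlap. Of the 25, 4 were higher and 2 lower in every compound 33 library (16.0% and 8.0%, against 6.64% and 6.73% of all genes tested). The main TNF receptor Tnfrsf1a had a log2 fold change of 0.04 (SE 0.24).

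Among 14 tested regulators the median was 0.10. Rnf11, a ubiquitin ligase that works with A20, stood at 248 ± 6.98 and 176 ± 13.7 CPM (log2 fold change -0.50, SE 0.19), and Zfand5, a zinc finger protein related to A20, at 80.7 ± 7.59 and 111 ± 6.82 CPM (0.45, SE 0.20). Neither passed after adjustment in edgeR (adjusted p = 0.674 and 0.720). Among 27 tested targets, which are secreted factors for the most part, the median was -0.17, with 10 positive and 17 negative. Under an unadjusted 0.05, 6 were lower (Il6, Ptgs2, Mmp3, Ccl20, Saa3 and Ccl2) and 1 higher, Irf1 (22.2% and 3.70%, against 3.23% and 3.64% of all genes). Mmp3, the matrix protease stromelysin 1, stood at 1889, 1782 and 1698 CPM with DMSO and at 1448, 994 and 976 CPM with compound 33. Ccl20, a chemokine for cells with the receptor CCR6, stood at 231, 189 and 221 CPM with DMSO and at 137, 90.8 and 180.2 CPM with compound 33. Both had groups that did not overlap, and log2 fold changes of -0.65 with SE 0.23 and 0.25. Of the 27 targets, 6 were lower and 0 higher in every compound 33 library (22.2% and 0.0%, against 6.73% and 6.64% of all genes tested). Irf1, an interferon and NF-κB target, stood at 155, 208 and 172 CPM with DMSO and at 306, 336 and 198 CPM with compound 33, where compound 33 replicate 3 lay within the DMSO range. The lists were chosen with earlier results of these data known, so their shares do not measure enrichment. They were described by these counts and medians only, and the difference between the 40 genes and the other targets was not tested.

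**Figure D4:**
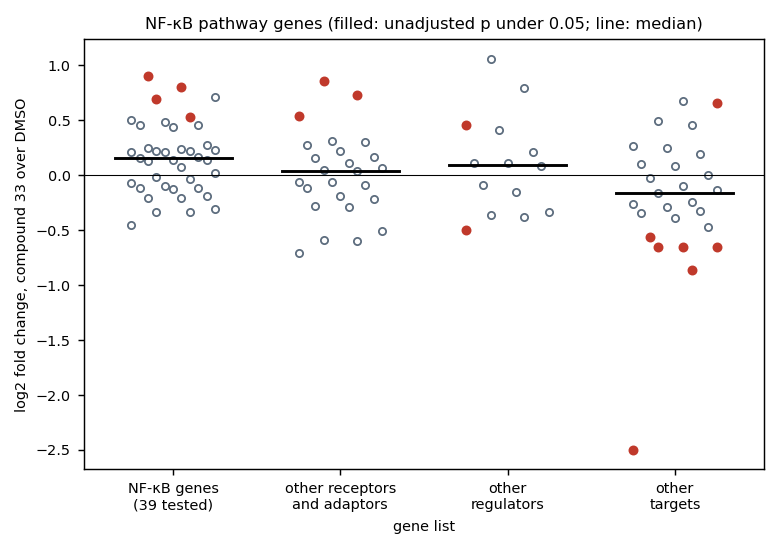
Log2 fold change of compound 33 over DMSO for the 39 tested NF-κB genes and for 25 other receptors and adaptors, 14 other regulators and 27 other targets; each circle is a gene, filled where the unadjusted edgeR p is under 0.05, and lines are medians (0.16, 0.04, 0.10 and -0.17). The lowest point is Il6 at -2.50.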

How the data were processed

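The authors deposited read counts as whole numbers for 6 libraries, by gene symbol. Per the submitters' processing notes they used FastQC 0.11.9, HISAT2 2.2.1, featureCounts 2.0.3, DESeq2 and build mm10. Per the labels' protocols, libraries came from the QuantSeq 3′ kit on an Ion Proton instrument. Annotation and strand setting: not given in the sources used here. A deposited comparison table holds the authors' mean normalized count (a signal), log2 fold change with its standard error, Wald statistic (a score), p-value and adjusted p-value.

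The main test used edgeR 4.0.16 in R 4.3.3: filterByExpr (minimum count 10, 10124 genes kept), TMM scaling, a robust quasi-likelihood F test (two-sided) on treatment alone, and Benjamini-Hochberg adjustment over all genes tested. Dividing a log2 fold change by the root of its F value gave its standard error. CPM use the TMM-scaled library size. The procedure was also run on simulated counts, and the outcome of that run is not given here. Alternatives were other scalings and filters, no robust estimation, DESeq2 1.42.0, limma 3.58.1 (voom), the replicate number as a block, and each library left out.

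The genes and lists were chosen with earlier results of these data known. All 40 genes are named; library values are given for those under an unadjusted p of 0.05, those whose groups do not overlap, at least the most abundant gene of each role, and some others as examples. Other pathway genes are named where under an unadjusted 0.05 with at least 5 CPM, and Tnfrsf1a was added after its value was seen. Replicate pairs of a group differed by more than counting noise (chi-square per degree of freedom 4.34 to 17.6). Exons of 10 of the 40 genes overlap a gene on the opposite strand and those of 3 a gene on the same strand in GENCODE M21, so their counts are uncertain. They are Bcl3, Icam1, Ikbkg, Nfkb2, Nfkbib, Ripk1, Tnfaip2, Tnfaip8, Traf5 and Vcam1, and Map3k14, Ripk1 and Traf5.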

Additional observations from a re-analysis of the deposited data

How the results depend on the processing

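None of the 40 genes passed at an adjusted p of 0.05 in any alternative, the smallest adjusted p being 0.146, that of Vcam1 in DESeq2. Of the 39 tested genes 25 kept the sign of their estimate in every alternative. Without a low-count filter 21 genes of the whole table passed, with DESeq2 18, and with the replicate block 7, where the edgeR test gave 3; leaving out a library in turn gave 1 (DMSO replicate 3 or compound 33 replicate 1) to 7 (DMSO replicate 1). One other pathway gene, Il6, passed in these 3 alternatives (1 each). The count of NF-κB genes under an unadjusted 0.05 was 2 to 4 with a library left out and 3 with the replicate block. The share over all genes tested was 5.73% without DMSO replicate 3 and 5.61% without compound 33 replicate 3. For the other left-out libraries and the block that share is not given here, so their counts have no background beside them. The median log2 fold change of the NF-κB genes in these fits was 0.12 to 0.22. The labels do not say whether replicate numbers shared by the groups mark pairs, and 3 libraries per group cannot decide it. Deviations from the group means correlated at -0.03, 0.21 and 0.08 for numbers 1, 2 and 3. DMSO replicate 1 correlated best with compound 33 replicate 3 (0.15), and DMSO replicates 2 and 3 with the compound 33 library of the same number.

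In the main test the estimates that changed sign ran from -0.12 for Traf3 to 0.21 for Tnip1. Leaving out a library moved some of them well beyond that range. Map3k7 became 0.0071 with limma-voom and 0.010 with the replicate block, and Birc3 0.070 and 0.035; the cause was not tested. With a library left out, estimates ran from -0.055 to 0.63 for Traf5, -0.23 to 0.075 for Traf2, -0.20 to 0.21 for Map3k7, -0.27 to 0.43 for Bcl3, -0.012 to 0.27 for Nfkbib, -0.26 to 0.44 for Birc3 and -0.34 to 0.21 for Rel. They ran from -0.046 to 0.35 for Tnip1, -0.35 to 0.17 for Traf3, -0.34 to 0.080 for Otulin, -0.23 to 0.43 for Nfkbiz, -0.029 to 0.46 for Nfkbie, -0.13 to 0.23 for Tnfaip8 and -0.16 to 0.14 for Nfkb2. Depth limits genes with few reads, such as Map3k8 (3 to 11 per library), Traf1 (5 to 12) and Rel (7 to 17).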
